A study of Mus musculus with 122 samples.

Results

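RAD21 peaks that lie away from the CTCF and CTCFL peaks of 8 FLAG peak files were examined in mouse embryonic stem cells whose own CTCF had been degraded. They were taken from replicate 1 of the RAD21 ChIP-seq of 2 conditions, CTCF ID and CTCFL ID. A RAD21 peak on chromosomes 1 to 19 or X was kept when not 1 bp of it overlapped any of 8 FLAG peak files, those of both replicates of D and ID in the CTCF and the CTCFL line. This left 2361 of 8593 peaks in CTCF ID (27.5%) and 1190 of 5821 in CTCFL ID (20.4%), which merge into 3226 regions, out of 102900 RAD21 peaks in the 16 RAD21 libraries of the series. They are called away peaks here, and the other 6232 and 4631 peaks of the same 2 files are called peaks at CTCF or CTCFL. They were chosen by the positions in the deposited RAD21 and FLAG peak lists, so their number and strength are a description.

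All cells were E14Tg2a embryonic stem cells of 129/Ola background, grown without feeders in serum, LIF and inhibitors of MEK and GSK3. In every line both CTCF alleles carry an AID degron with eGFP, Tir1 is expressed from Rosa26, and a doxycycline-inducible FLAG-tagged, mRuby2-tagged transgene sits at Tigre. The transgene encodes CTCF, CTCFL or a chimera of both (LCL carries the zinc fingers of CTCF between the termini of CTCFL, CLC the reverse, CLL joins the N terminus of CTCF to the rest of CTCFL, and LLC joins the C terminus of CTCF to the rest of CTCFL). Each line is a clone. U is untreated, I received 500 µM IAA, which degrades the endogenous CTCF, D received 1 µg/ml doxycycline, which induces the transgene, and ID received both. The sample labels give 24 h of treatment for RAD21, RNA-seq, Hi-C and the FLAG files of the rule, and 48 h for FLAG in CLL, LLC and cells given RNase or its mock before ChIP. The protocol gives 2 days, and 4 days for Hi-C. FLAG ChIP-seq recovers the transgenic protein alone, so endogenous CTCF in D cells was not measured by it.

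Cohesin is a ring-shaped complex built of SMC1A, SMC3, RAD21 and a STAG subunit. It is loaded on chromatin with the help of NIPBL and MAU2, extrudes loops of DNA, and is released by WAPL with PDS5. In most mammalian cells the sharpest cohesin peaks lie at CTCF, a zinc finger protein that stops the moving ring at its asymmetric motif. CTCFL (BORIS) is a germline paralog with nearly the same zinc fingers and different ends. Cohesin peaks outside such sites are known from enhancers and promoters, where the loader and Mediator are found, and read pile-ups at repeats can also be listed by a peak caller.

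Most away peaks held or lay beside a tract in which a purine and a pyrimidine alternate, many of them (CA)n or its other strand (TG)n. The sequences that follow show the strongest away peak of both files (chr3:153838177-153838283, in an intron of Asb17os) and away peaks at the promoters of Ryr2 (chr13:12109106-12109186), Ntrk3 (chr7:78261072-78261183), Mlph (chr1:90913980-90914060) and Plcb4 (chr2:135988562-135988766), genes whose RNA is described further on, with the most recurrent away peak, close to the first sequenced base of chromosome 9 (chr9:3001392-3001481). All are given on the plus strand of GRCm38/mm10, and capitals mark the longest alternating stretch inside the peak.
chr3, strongest away peak: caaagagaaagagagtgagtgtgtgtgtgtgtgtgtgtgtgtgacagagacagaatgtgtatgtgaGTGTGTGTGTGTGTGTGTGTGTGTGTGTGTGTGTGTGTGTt
Ryr2 promoter: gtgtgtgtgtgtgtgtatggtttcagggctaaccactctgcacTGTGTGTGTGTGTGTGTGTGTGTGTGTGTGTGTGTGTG
Ntrk3 promoter: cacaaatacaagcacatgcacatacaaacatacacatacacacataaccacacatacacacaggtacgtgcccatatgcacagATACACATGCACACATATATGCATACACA
Mlph promoter: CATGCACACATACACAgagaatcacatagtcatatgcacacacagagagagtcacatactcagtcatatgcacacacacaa
Plcb4 promoter: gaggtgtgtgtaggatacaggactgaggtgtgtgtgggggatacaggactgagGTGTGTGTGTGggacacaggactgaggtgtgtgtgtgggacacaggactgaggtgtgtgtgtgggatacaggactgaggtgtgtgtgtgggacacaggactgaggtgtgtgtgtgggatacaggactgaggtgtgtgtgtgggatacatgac
chr9, most recurrent: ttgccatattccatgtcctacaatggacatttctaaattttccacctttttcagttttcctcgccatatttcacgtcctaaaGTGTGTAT
The first 3 hold stretches of 40, 38 and 29 bases, Plcb4 a short repeat unit with stretches of at most 11 bases, and the chromosome 9 peak a stretch of 8 bases in another kind of repeat.

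Few away peaks held a CTCF core. One that did is shown over the 200 bp at chr19:44949343-44949542, in an intron. This away peak had a fold enrichment of 4.54 and a peak in 0 of 14 other RAD21 libraries. It is shown because it carries the letters that most away peaks lack. Here capitals mark the core, with 2 mismatches to the consensus, on the minus strand.
chr19, away: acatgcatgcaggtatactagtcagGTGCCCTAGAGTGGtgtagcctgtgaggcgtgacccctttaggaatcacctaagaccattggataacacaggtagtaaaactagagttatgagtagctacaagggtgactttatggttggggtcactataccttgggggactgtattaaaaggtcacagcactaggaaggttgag

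The longest alternating stretch was measured in the 200 bp around the middle of each peak. Its median was 27 bp in the away peaks of CTCF ID and 25 bp in those of CTCFL ID, against 7 bp in all 200 bp windows of chromosomes 1 to 19 and X. A stretch of 20 bases or more was present in 1599 of the 2361 away peaks of CTCF ID (67.7%) and in 729 of the 1190 of CTCFL ID (61.3%). The same held for 3.8% of genome windows and 1.02% of windows at the start of protein-coding genes. Stretches of 30 bases or more were found in 43.2% and 40.5% of the away peaks and in 2.39% of genome windows. The 6-mer ATACAC or its other strand GTGTAT occurred in 80.9% and 76.1% of the away peaks and in 10.9% of genome windows. This measure was chosen after the sequences had been seen.

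Such tracts were not limited to peaks away from CTCF. Peaks of the same files at CTCF or CTCFL held a stretch of 20 bases in 55.9% (CTCF ID) and 53.4% (CTCFL ID). The window of 200 bp is wider than most peaks, and inside the peak itself such a stretch was present in 58.8% and 50.1% of the away peaks and in 54.1% and 49.4% of the wider peaks at CTCF or CTCFL. The CTCF core, which the rule did not read but which is tied to the FLAG peaks it used, differed more. It was searched in 500 bp around the middle on both strands with at most 2 mismatches, and was present in 1.91% and 1.6% of the away peaks, in 27% and 29.2% of the peaks at CTCF or CTCFL, and in 4.53% of genome windows. Among peaks at CTCF or CTCFL the features hardly met in the same peak: of those with a core, 7.78% and 7.41% had a stretch of 20 bases, and of those without, 73.7% and 72.3%. Away peaks with neither feature numbered 741 (31.4%) in CTCF ID and 449 (37.7%) in CTCFL ID.

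**Figure D1:**
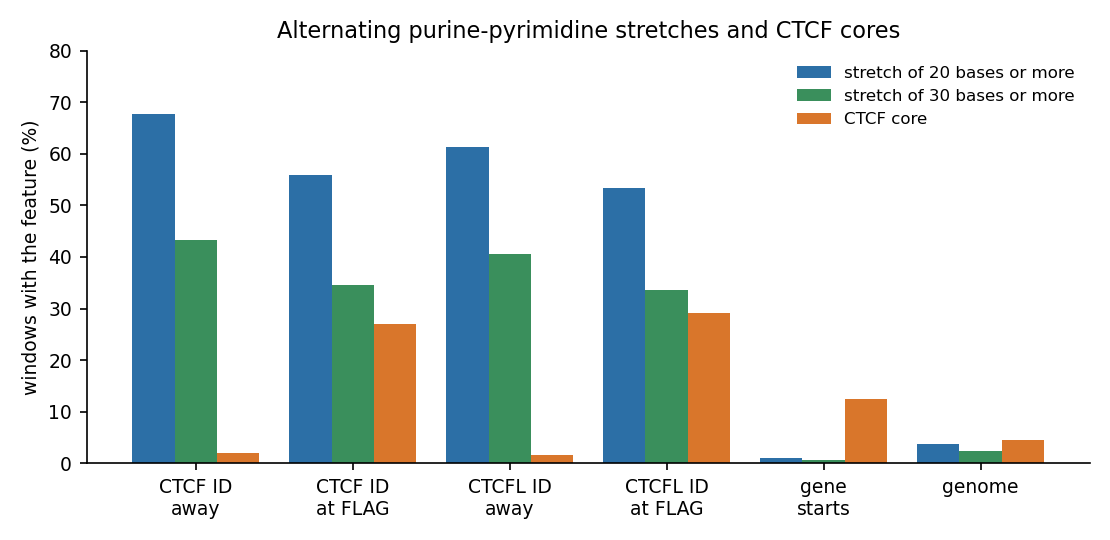
Share of windows (y axis, %) with an alternating purine-pyrimidine stretch of 20 or 30 bases within 200 bp and with a CTCF core within 500 bp, for the away peaks and the peaks at CTCF or CTCFL (at FLAG) of both files, the starts of protein-coding genes and the genome. The blue bars stand at 67.7% and 61.3% for the away peaks and at 3.8% for the genome, and the orange bars at 1.91% and 1.6% for the away peaks.

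The tracts followed the replicate number of the RAD21 libraries. In the 8 libraries of replicate 1, over the 4 lines and D and ID, 25.6% to 60.6% of all peaks held a stretch of 20 bases, and in the 8 of replicate 2, 2.59% to 9.94% did. The ranges do not overlap. Among the away peaks alone the share was 41.3% to 67.7% in replicate 1 and 0% to 18.1% in replicate 2. The number of peaks also differed, with 8593 against 784 in CTCF ID and 5821 against 181 in CTCFL ID. In 2 lines it was the other way round in D, with 1491 peaks in replicate 1 and 10771 in replicate 2 of CLC D, and 5292 and 14913 in LCL D. These large replicate 2 lists held the stretch in 4.62% and 8.27% of their peaks. The labels say nothing of how the replicates differ, no read depth is given for the ChIP-seq libraries, and the part of the tracts in each result below was not tested except where values without them are given.

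**Figure D2:**
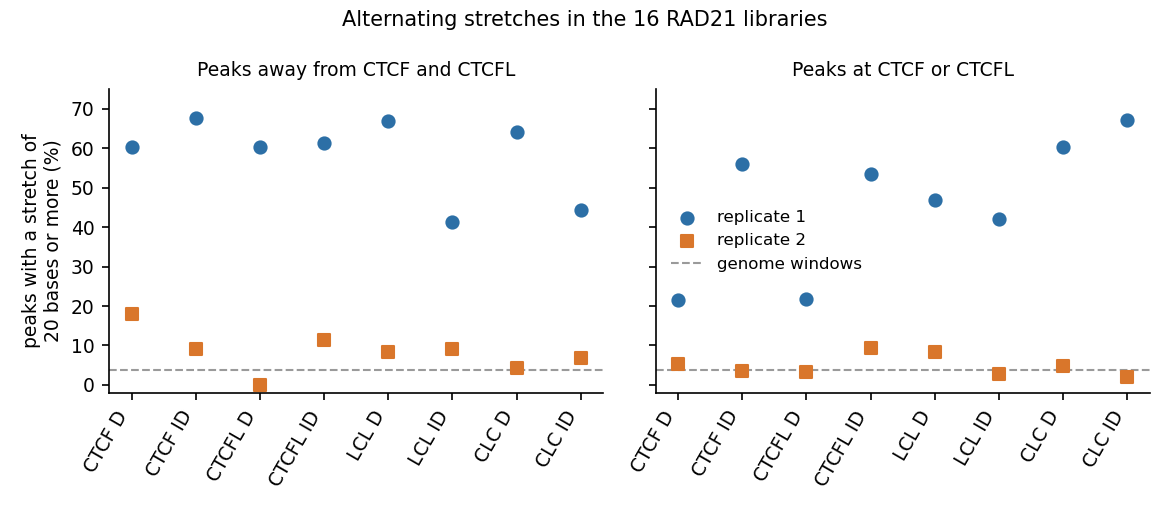
Share of peaks with an alternating stretch of 20 bases or more (y axis, %) in each of the 16 RAD21 libraries, for peaks away from CTCF and CTCFL (left) and peaks at them (right), with replicate 1 as circles, replicate 2 as squares and the genome level of 3.8% dashed. In the left panel replicate 1 spans 41.3% to 67.7% and replicate 2 spans 0% to 18.1%.

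Motifs of factors that bind enhancers and promoters were mostly rarer in the away peaks than in genome windows, in windows of 500 bp and on both strands. The octamer ATGCAAAT, read by OCT4, was present in 3.09% (CTCF ID) and 3.78% (CTCFL ID) against 4.36% of genome windows. The AP-1 motif TGANTCA was found in 8.73% and 8.91% against 14.3%, the TATA motif TATAAA in 28% and 28.1% against 40.6%, and the YY1 motif AAGATGGC in 1.82% and 1.76% against 4.46%. The ESRRB motif TCAAGGTCA stood at 1.1% and 0.42% against 1.07%. GC-rich promoter motifs were rare, with the SP1 motif GGGGCGGGG in 0.127% and 0.252% of away peaks against 17.8% of gene starts and 0.859% of genome windows. More common than in genome windows was the E-box CACGTG, in 10% and 7.82% against 4.83%, whose letters themselves alternate purine and pyrimidine, and the NRF1 motif, in 0.466% and 0.168% against 0.14%. The G+C content of 42% in both sets was close to the 41.8% of genome windows, CpG was lower (0.614 and 0.622 against 0.834 per 100 bp), and 55.8% and 55.2% of the bases were soft-masked repeats against 34.3%. Most of this was shared by the peaks at CTCF or CTCFL of the same files. There the octamer stood at 2.13% (CTCF ID) and 2.44% (CTCFL ID), AP-1 at 7.19% and 7.6%, and TATA at 23.4% and 22.4%. YY1 stood at 1.96% and 2.12%, the E-box at 7.62% in both, and soft-masked bases at 58.2% and 57.3%. SP1 (0.754% and 0.907%) and CpG (0.881 and 0.902 per 100 bp) were closer to genome windows than in the away peaks. A motif match describes the letters of a window and no more.

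A middle within 3 kb of a GENCODE start site, here called a promoter, was found for 371 away peaks of CTCF ID (15.7%, 95% Wilson interval 14.3% to 17.2%) and 224 of CTCFL ID (18.8%, 16.7% to 21.1%), where such windows cover 15.7% of the sequenced bases. The intervals cover counting error only. Within 1 kb of a start the shares were 5.59% and 6.64% against 6.13% of the sequenced bases. Introns outside promoters held 42.3% and 38.4% against 34.3%, exons 0.889% and 0.756% against 2.2%, and the remaining 41.1% and 42% lay between genes, which make up 47.9% of the sequenced bases. Peaks at CTCF or CTCFL of the same files lay at promoters in 17.3% and 17.6%, and in introns in 36% and 34%.

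Chromosomes were unequally represented. Chromosome X, with 6.39% of the sequenced bases, held 10 away peaks of CTCF ID (0.424%) and 2 of CTCFL ID (0.168%), and a like scarcity was seen in the peaks at CTCF or CTCFL (0.16% and 0.259%). The cells are labelled XY, so X is present in 1 copy. Chromosome 1 held 5.8% of the away peaks in CTCF ID and 14.4% in CTCFL ID against 7.5% of the sequenced bases, and chromosome 6 held 2.96% and 7.82% against 5.72%. Peaks at CTCF or CTCFL differed in the same direction, with 8.97% and 11.8% on chromosome 1 and 5.31% and 7.62% on chromosome 6. In RNA-seq the median gene of the CTCFL line on these 2 chromosomes was 0.26 and 0.27 higher on the log2 scale than in the CTCF line, where the libraries of the CTCF line themselves spanned -0.11 to 0.07 on chromosome 1 and -0.05 to 0.04 on chromosome 6 (11 libraries a line). On chromosome 11 the median gene of the CTCFL line was lower, at -0.2, and the away peaks stood at 6.82% and 7.06% against 4.64% of the sequenced bases. Copy number was not measured, each line is 1 clone, and the line and its clone cannot be told apart. The first 200 kb of sequence after the unsequenced start of each chromosome, 0.156% of the bases, held 30 away peaks of CTCF ID (1.27%) and 14 of CTCFL ID (1.18%), against 0.513% and 0.691% of the peaks at CTCF or CTCFL.

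The away peaks were weak and narrow. Their median fold enrichment was 4.07 in CTCF ID and 4.21 in CTCFL ID, against 4.18 and 4.32 for peaks at CTCF or CTCFL. The median width was 118 bp and 105 bp against 168 bp and 157 bp. A −log10 q of 5 or more was reached by 12 away peaks of CTCF ID (0.508%) and 19 of CTCFL ID (1.6%), of which 16.7% and 10.5% had a stretch of 20 bases. Few peaks at CTCF or CTCFL reached it either, 137 (2.2%) and 106 (2.29%). The median distance to the nearest FLAG peak was 7415 bp (CTCF ID) and 5129 bp (CTCFL ID). Just inside the rule, 33 and 29 away peaks lay within 100 bp of a FLAG peak and 206 (8.73%) and 149 (12.5%) within 1 kb. Just outside it, 7 and 8 peaks counted as at CTCF or CTCFL overlapped by at most 10 bp. The 5 strongest away peaks of CTCF ID had fold enrichments from 6.61 to 7.69 and those of CTCFL ID from 7.53 to 9.7. Besides the Asb17os intron they included one at Mid1 on chromosome X (chrX:169984977-169985078), one in the cluster of 5S ribosomal RNA genes (chr8:123600574-123600649), and one on chromosome 9 among repeats (chr9:3015286-3015361).

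Whether cohesin was seen at the same places in other libraries was asked of the 14 RAD21 libraries that did not choose the peaks. Away peaks recurred less often than peaks at CTCF or CTCFL in 14 of 14 libraries. Over CTCF ID away peaks the share overlapped by a peak of the library was 21.1% in CTCF D replicate 1 and 19.4% in CTCFL D replicate 1, the libraries with the most peaks. For peaks at CTCF or CTCFL these shares were 76.4% and 72.1%. In replicate 2 of CTCF ID itself, 8 away peaks (0.339%) and 508 of the other peaks (8.15%) were overlapped. For CTCFL ID, 21 away peaks (1.76%) and 104 others (2.25%) were overlapped by its own replicate 2. The mean difference over 14 libraries was -19.51 percentage points for CTCF ID and -19.67 for CTCFL ID, each with p = 0.000122 (two-sided exact permutation test flipping the sign within each library, the smallest p it can give). The rule itself put every peak also listed in a FLAG file it used into the comparison set. Those peaks were also wider, with medians of 168 bp and 157 bp against 118 bp and 105 bp. The test cannot separate the rule and the widths from recurrence itself, and their part was not tested. In the 6 libraries of replicate 1 alone the differences were -32.01 and -32.02, and in the 8 of replicate 2 they were -10.15 and -10.41, lower in every library. With the 150 strongest peaks of every library they were -1.22, lower in 14 of 14, and -1.21, lower in 13 of 14. Among peaks of the 2 files with a −log10 q of 5 or more they were -30.6, lower in 13 of 14 libraries, and -29.9, lower in 12 of 14. Restricted to peaks with a stretch under 20 bases, an analysis added after seeing the data, the differences were -26.51 and -25.96 with the same p from the exact test.

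**Figure D3:**
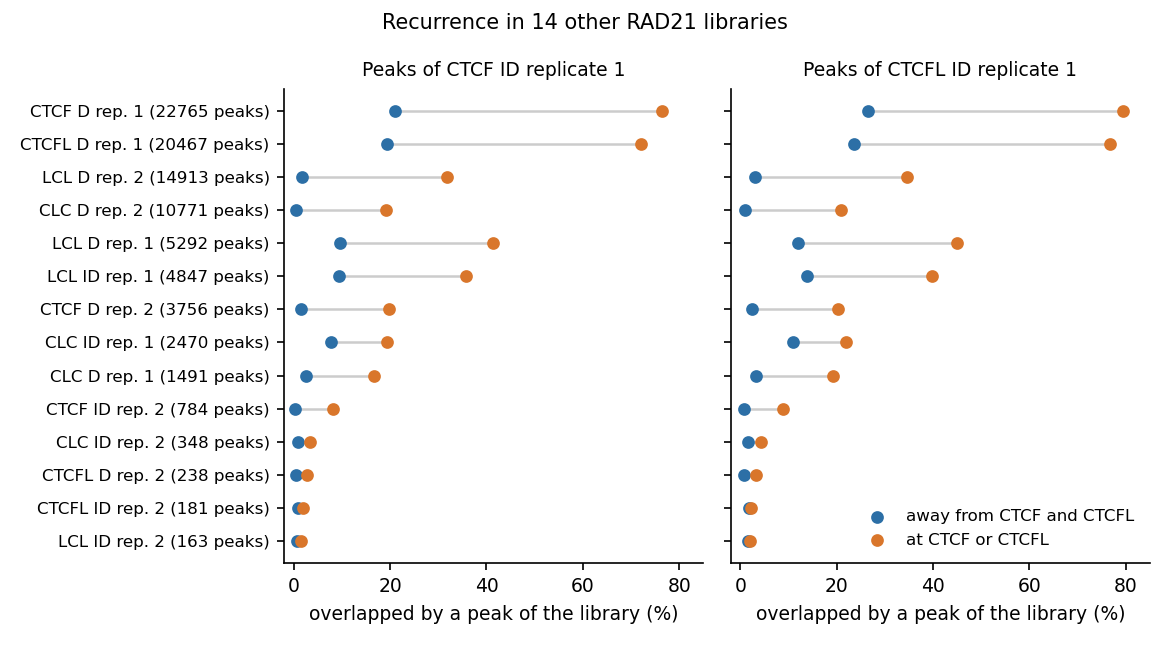
Share of the peaks of CTCF ID replicate 1 (left) and CTCFL ID replicate 1 (right) overlapped by a peak of each of 14 other RAD21 libraries (x axis, %), ordered by their number of peaks, with away peaks in blue and peaks at CTCF or CTCFL in orange. Blue lies to the left of orange in 14 of 14 libraries, from 0.339% to 21.1% in the left panel.

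Most away peaks were therefore seen in few libraries. Of those of CTCF ID, 1412 (59.8%) had a peak in 0 of the 14 libraries, 501 (21.2%) in 1, 352 (14.9%) in 2 to 3 and 96 (4.07%) in 4 or more. Of those of CTCFL ID, 609 (51.2%) were in 0 and 74 (6.22%) in 4 or more. Peaks at CTCF or CTCFL were in 4 or more libraries in 44.8% and 49.9%. Both files shared 325 away peaks, 13.8% of those of CTCF ID and 27.3% of those of CTCFL ID.

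In 7 or more libraries there were 17 away peaks of CTCF ID and 15 of CTCFL ID, with a maximum of 11 libraries. A stretch of 20 bases was held by 5.88% and 6.67% of them, by 65.8% and 59.4% of the away peaks in 0 libraries, 74.5% and 63% in 1, 71.9% and 70.5% in 2 to 3 and 45.8% and 40.5% in 4 or more. As 6 of the 14 libraries are of replicate 1, a peak in 7 or more is in a replicate 2 list, where such stretches were rare. The part of this in the low share at the top was not tested. For the peaks in 7 or more libraries the middle 32 bases occurred more than 1 time in the genome in 58.8% and 60%. The same held for 15.1% and 17.2% of all away peaks and 12.6% and 12.9% of the peaks at CTCF or CTCFL. The authors kept uniquely mapped reads. At promoters lay 9 (52.9%) and 7 (46.7%) of the peaks in 7 or more libraries. In 11 libraries were the chromosome 9 peak printed above, whose middle bases occurred 53 times, and a peak between genes at chr14:5904339-5904419. In 10 libraries were chr1:85495022-85495109, between genes, and chr13:13860865-13860985, at a promoter. The strongest peak, on chromosome 3, was in 9 libraries and held a stretch of 40 bases.

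The away peaks were also set against 24 FLAG files that the rule did not use. Of these, 16 were of chimeras (CLC, LCL, CLL and LLC) and 8 of CTCF ID and CTCFL ID cells given RNase or its mock before ChIP. These 24 files together cover 1.81% of the bases. Of the away peaks, 756 of CTCF ID (32%) and 391 of CTCFL ID (32.9%) were under none of them, and 733 (31%) and 406 (34.1%) were under 5 or more, up to 17 files. Of the peaks at CTCF or CTCFL, 0.61% and 0.561% were under none and 93.5% and 94.1% under 5 or more. In mock samples, which carry the same FLAG-tagged proteins as the files of the rule, a peak covered 900 (38.1%) and 444 (37.3%) of the away peaks, and 91.3% and 92.2% of the peaks at CTCF or CTCFL. A FLAG peak was thus listed at many of these sites in files outside the rule, and the sites are away from CTCF and CTCFL only by the 8 files used.

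The outside files differed widely in how many of their own peaks were tracts and in how many away peaks they covered. In LLC D replicate 2, where 73.8% of FLAG peaks held a stretch of 20 bases, 38.6% and 40.7% of the away peaks were overlapped, by peaks covering 0.139% of the bases, and 62.4% and 60.5% of the peaks at CTCF or CTCFL. In CTCF ID RNase replicate 1 (33.2% with a stretch) the overlap was 33.1% and 34.1%, and in its replicate 2 (23.6%) it was 4.4% and 4.62%. Of the peaks at CTCF or CTCFL, 84.1% and 84.4% were overlapped by this replicate 1 and 42% and 45.8% by replicate 2. In LCL ID, where 4.4% and 4.08% of the FLAG peaks of replicates 1 and 2 held a stretch and the files cover 1.13% and 1.14% of the bases, 0.508% and 0.381% of the CTCF ID away peaks were overlapped, and 39.2% and 36.3% of the peaks of that file at CTCF or CTCFL. The FLAG files used by the rule held the stretch in 6.58% to 14.8% of their peaks. Away peaks under 5 or more outside files had a stretch of 20 bases in 79.5% and 75.9%, and those under none in 49.7% and 40.7%.

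**Figure D4:**
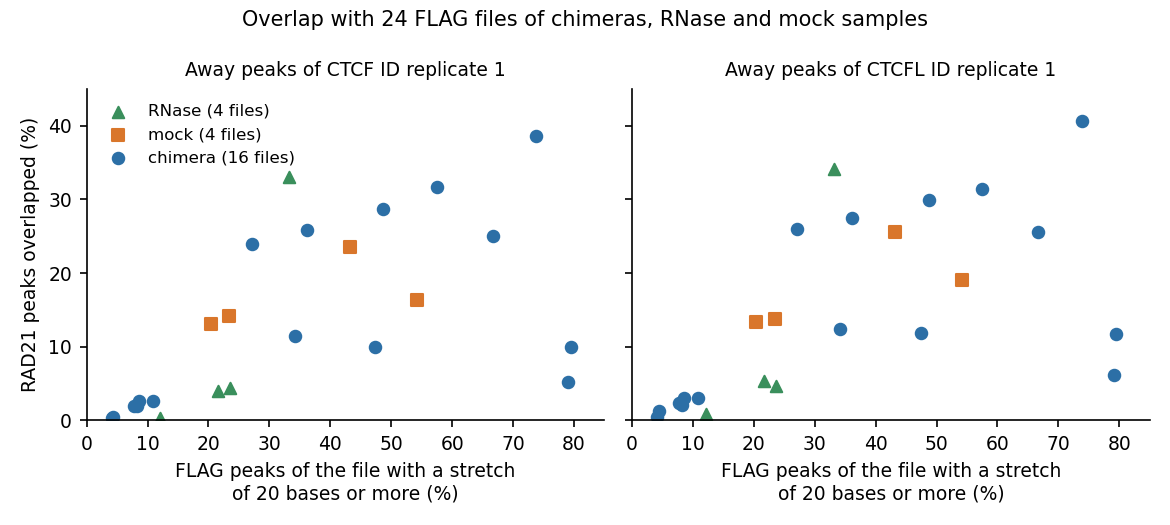
Share of away peaks of CTCF ID (left) and CTCFL ID (right) overlapped by each of 24 FLAG files outside the rule (y axis, %) against the share of that file's own peaks with an alternating stretch of 20 bases or more (x axis, %). The LCL and CLC ID files lie at the lower left and LLC D replicate 2 at the top, with 38.6% and 40.7%, while CLL D and LLC D replicate 1, with few peaks (2233 and 3827), lie at the lower right.

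Domain ends had been called from Hi-C of U, I, D and ID of both lines. With the method of Crane, windows of 40 kb around domain ends covered 17.7% to 19.7% of the sequenced bases over the 8 conditions and held 17.1% to 20% of the away peaks. With HiCratio the windows covered 11.4% to 14% of the sequenced bases and held 14.4% to 20.6% of the away peaks and 16.9% to 28.3% of the peaks at CTCF or CTCFL. There was 1 domain list per condition and caller, so no test was made.

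The design allows 2 further tests in the 14 libraries that did not choose the peaks. First, the promoter share of away peaks was compared with that of peaks at CTCF or CTCFL, and no difference beyond the spread of the libraries was found. The difference was positive in 7 libraries and negative in 7, from -13.14 percentage points in CTCF ID replicate 2 (22 away peaks) to 12.69 in CTCF D replicate 2 (149 away peaks), with a mean of 0.1 (two-sided exact permutation p = 0.956). The promoter shares themselves varied with the library, at 49.8% of away peaks in CLC D replicate 2 and 41.4% in LCL D replicate 2 against 17.5% in CTCF D replicate 1 and 18.2% in CTCFL D replicate 1. Second, the share of all RAD21 peaks that lay away was compared between ID and D. It was 27.5% and 20.4% in the 2 files of the rule, 10.9% and 11.3% in replicate 1 of CTCF D and CTCFL D, and 2.81% to 33.7% in replicate 2 of the 4 ID conditions. Over the 14 libraries the mean of ID minus D was 4.84 percentage points, positive in 2 of 4 lines (exact permutation of the labels within lines, p = 0.358). It was 14.38 in replicate 1 alone, where only the LCL and CLC lines remain and 4 libraries cannot give a p under 0.25. The FLAG peaks of these chimeras were not used to define away. In replicate 2 alone it was 0.15 (exact p = 1). With the 150 peaks of highest fold enrichment of every library the difference was 15.67 (exact p = 0.0216), positive in 3 of 4 lines. This permutation took no account of replicate, and in the CTCF and CTCFL lines the only ID library left is replicate 2. Paired by replicate number over all peaks, the mean was 4.89 (6 pairs, exact sign-flip permutation p = 0.438). The part of the replicate in 15.67 was not tested.

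RNA of the genes with an away peak at the promoter was compared between ID or I and U. RNA-seq counts divided by the authors' size factors (normalised counts) were available for 2 or 3 libraries a group in both lines. Of 408 genes at away peaks of CTCF ID, 363 were in the table, 87 of them at 0 in every library of the CTCF line, and 176 had a mean of at least 10 and were tested. Of 254 genes at away peaks of CTCFL ID, 233 were in the table, 60 at 0, and 110 were tested. The tested genes had a median level of 75.7 (CTCF line) and 72.4 (CTCFL line) normalised counts per kb of exon, against 107 over all tested genes. A gene was called when its limma adjusted p was under 0.01 and its change was past 1 on the log2 scale.

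In CTCF ID against U, 37 of the 176 genes were called (21%), 14 higher and 23 lower, where 14.9% of all 16705 tested genes were called, 5.59% higher and 9.26% lower. In CTCF I against U, 25 were called (14.2%), 14 higher and 11 lower, against 10.9% of all genes, 5.0% higher and 5.92% lower. In CTCFL ID against U, 28 of the 110 genes were called (25.5%), 13 higher and 15 lower, against 19.6% of 16840 genes, 8.91% higher and 10.7% lower. In CTCFL I against U, 13 were called (11.8%), 7 higher and 6 lower, against 9.58% of all genes, 3.69% higher and 5.88% lower. That excess did not hold without CTCFL I replicate 1 (8 genes, 7.34% against 8.89%) or CTCFL U replicate 2 (8 genes, 7.21% against 8.68%), nor without CTCFL I replicate 2 (8.11% against 8.62%) or replicate 3 (8.18% against 8.66%), nor with stretches under 20 bases alone (8.16% against 9.58%). Genes with a peak at CTCF or CTCFL at the promoter were called in 19.8%, 17.4%, 22.3% and 12.7% of these comparisons. The median log2 fold change of the genes at away peaks was between -0.08 and 0.04 in all 4 comparisons, against 0.03 to 0.08 for all genes. The ID and I comparisons of a line share their U libraries.

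Plcb4, which encodes a phospholipase C downstream of G protein-coupled receptors, was called lower in all 4 comparisons. Its away peak, in both files and in 7 of 14 other RAD21 libraries, lies 788 bp downstream of a start site and within the gene. Its normalised counts were 1350 and 1430 in CTCF U, 255.6, 193.1 and 178.5 in CTCF I and 67.51, 76.26 and 63.56 in CTCF ID. In the CTCFL line they were 1336, 1491 and 1465 in U, 260.2, 177.7 and 232.6 in I and 127.8 and 115.6 in ID. The groups do not overlap, and the order U, I, ID is the same in both lines. Counts in D, without IAA, were below U as well, at 986.2, 1123 and 867.9 in the CTCF line. In CTCFL D they were 909.7, 1021 and 1064. The log2 fold changes were -4.31 in CTCF ID (SE 0.16, limma adjusted p = 2.65e-10) and -3.55 in CTCFL ID (SE 0.15, limma adjusted p = 2.6e-14), and -2.74 and -2.69 in I.

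Ryr2, the calcium release channel of heart muscle, fell in both lines. Its away peak in CTCF ID lies upstream of a start site (position -2201 bp) and had no peak in the other 14 libraries. Its normalised counts were 301 and 360.1 in CTCF U, 36.78, 20.45 and 16.76 in I, 252.6, 260.3 and 293.3 in D and 3.62, 5.87 and 21.19 in ID. D cells lay just below U, and I and ID cells far below. The log2 fold change was -5.21 in ID (SE 0.5, limma adjusted p = 1.5e-06) and -3.76 in I (SE 0.5, limma adjusted p = 4.64e-05). It fell by 5.08 in CTCFL ID as well, where no away peak lay at its promoter.

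Other genes with an away peak of CTCF ID at the promoter fell as well. Etv6, an ETS family repressor, went from 600.9 and 697.1 in U to 50.64, 70.39 and 69.61 in ID (log2 fold change -3.34, SE 0.17, limma adjusted p = 3.94e-09). Grip1, a scaffold protein of glutamate receptors, went from 395.6 and 416.5 to 62.69, 62.18 and 62.05 (-2.68, SE 0.13, limma adjusted p = 1.79e-09). Both also fell in the CTCFL line, by 3.76 and 2.2 on the log2 scale in ID, where no away peak lay at their promoters. Sh3kbp1, an adaptor in receptor uptake, fell from 79.76 and 87.28 to 9.64, 3.52 and 0 (log2 fold change -4.54, SE 0.68, limma adjusted p = 8.71e-05). It was called lower in CTCFL ID as well (log2 fold change -3.08), without an away peak at its promoter there. Abca4, a lipid transporter of photoreceptors, stood at 29.78 and 30.93 in U and at 3.62, 4.69 and 3.03 in ID (-2.73, SE 0.5, limma adjusted p = 0.000419). In all of these the U and ID groups of the CTCF line do not overlap. Counts in CTCF D were below U for Etv6 (489.4, 580 and 469.2), Grip1 (389.4, 373.9 and 343.2) and Abca4 (16.84, 23.37 and 8.69). Those of Sh3kbp1 (118.9, 83.92 and 90.15) overlapped U.

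Among genes higher in I than in U, A530040E14Rik went from 2.13 and 1.1 in CTCF U to 14.52, 29.54 and 13.41 in I, and from 0 in the 3 U libraries of the CTCFL line to 25.18, 16.97 and 9.96 in I. The log2 fold change in CTCF I was 2.89 (SE 0.53, limma adjusted p = 0.000628), and against 3 libraries at 0 no fold is given. In doxycycline alone it stood at 9.47, 8.5 and 6.52 in the CTCF line and 17.76, 13.59 and 18.73 in the CTCFL line, above U in both. Slc22a3, a transporter of organic cations, went from 11.7 and 7.73 in CTCF U to 49.37, 42.03 and 54.48 in I (log2 fold change 2.23, SE 0.49, limma adjusted p = 0.00235) and stood at 4.82, 18.77 and 7.57 in ID. Card14, an activator of NF-kB signalling, was higher in CTCFL I, with 72.73, 73.85 and 61.54 against 33.66, 16.8 and 15.1 in U (1.71, SE 0.47, limma adjusted p = 0.00538). It was also called higher in CTCF I (1.78), CTCF ID (1.48) and CTCFL ID (1.77), with an away peak at the promoter in both lines. The call of Card14 in CTCFL I was lost in 8 of 13 alternatives. So was that of Tbata, with 18.65, 11.98 and 30.77 against 4.04, 4.94 and 0 (2.69, SE 0.79, limma adjusted p = 0.00865). Tbata stood at 12.83, 7.68 and 26.22 in CTCFL D.

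Ctcfl itself and its antisense RNA Ctcflos rose in CTCFL ID. Ctcfl stood at 192.6, 225.3 and 205.5 in U, 221, 202.6 and 177.4 in I and 5572 and 5455 in ID (log2 fold change 4.73, SE 0.12, limma adjusted p = 2.47e-17). Reads of the transgene count towards it, and induced and endogenous RNA cannot be told apart. The away peak at Ctcfl, chr2:173118599-173118693, is 95 bp long, lies in full in an exon of Ctcfl and 17 bp from the nearest FLAG peak. Ctcflos overlaps Ctcfl on the other strand, and although the libraries kept strand by the dUTP method, the counting is not stated to use it. Ctcflos went from 2.69, 11.86 and 0 in U to 113.6 and 93.48 in ID (4.84, SE 0.75, limma adjusted p = 1.11e-05).

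Further genes rose in CTCFL ID. Wif1, a secreted inhibitor of Wnt, went from 24.24, 23.72 and 19.74 in U to 252.2 and 229.2 in ID and stood at 9.32, 14.97 and 29.87 in I (log2 fold change in ID 3.36, SE 0.41, limma adjusted p = 3.79e-07). In doxycycline alone it stood at 141.1, 171.4 and 176. Adra2c, an adrenergic receptor, went from 1.35, 6.92 and 13.93 to 100.5 and 126.7 (4.12, SE 0.73, limma adjusted p = 5.99e-05), with 9.32, 2.99 and 8.15 in I. Its counts in D were 29.6, 33.68 and 26.22. Mlph, a linker of melanosomes to myosin, rose in I from 25.58, 8.89 and 12.77 to 67.14, 76.85 and 61.54 (2.17, SE 0.42, limma adjusted p = 0.000231). Ntrk3, the receptor of neurotrophin-3, fell in I from 173.7, 203.6 and 141.7 to 14.92, 43.91 and 19.01 (-2.83, SE 0.38, limma adjusted p = 3.77e-06). Its counts in D were 72.02, 49.64 and 74.91, also below U. In the CTCF line, without an away peak at its promoter, it was called lower in ID (-2.78) and not in I (-1.03). The away peaks of Adra2c and Ntrk3 were in none of the 14 other libraries, those of Wif1 and Mlph in 2.

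**Figure D5:**
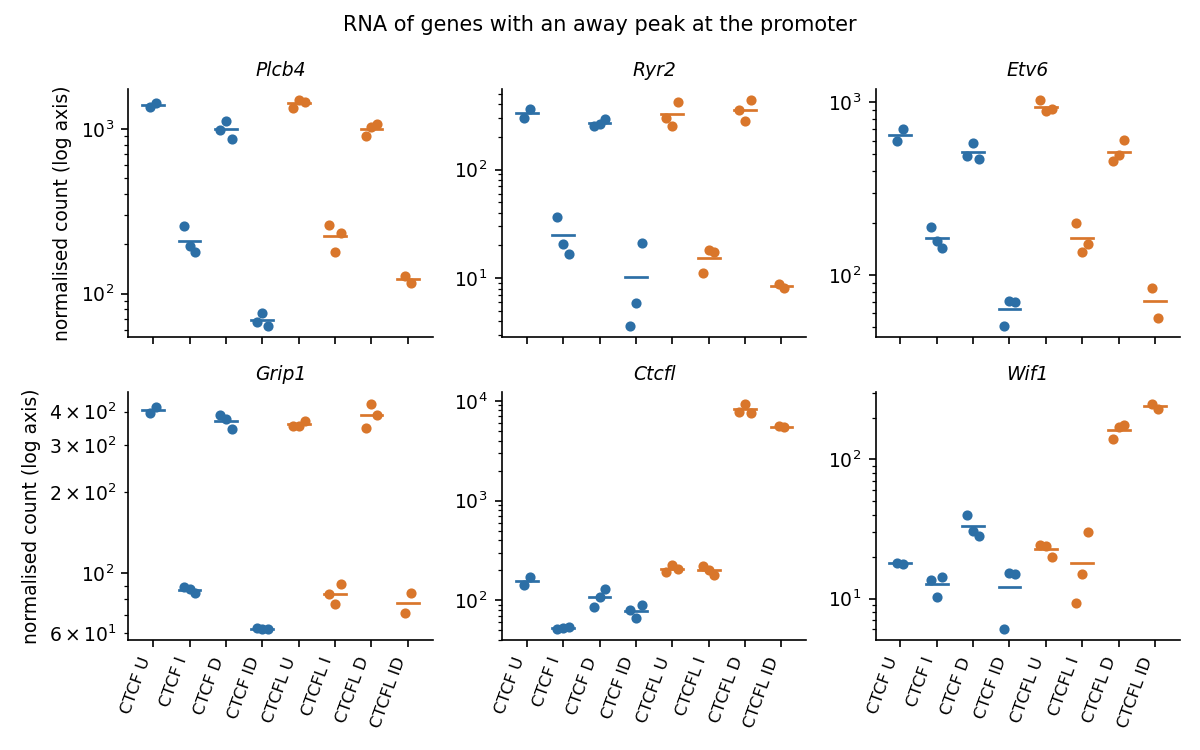
Normalised RNA-seq counts (log y axis) of 6 genes with an away peak at the promoter in each library of 8 groups, with the CTCF line in blue, the CTCFL line in orange and the group mean as a bar. Plcb4, Ryr2, Etv6 and Grip1 are lower in I and ID than in U in both lines, Plcb4 falling from 1350 and 1430 to 63.56 to 76.26 in CTCF ID, and Ctcfl and Wif1 are high in D and ID of the CTCFL line.

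Of 35 protein-coding genes with an away peak of both files at the promoter, the 12 with peaks in most of the other libraries were read in detail. Apart from Plcb4, Phf21a and Lpar1 they are gene models or copies in repeated sequence. Gm10722, Gm11168, Gm10717, Gm10719, Gm10720 and Gm10721 lie at the start of chromosome 9, and their normalised counts were at most 11.24 in any library. Gm21738 and Gm3453, on chromosome 14, were not called, with log2 fold changes between -1.11 and 0.57 where tested. Duxf3, a copy of Dux, an activator of early embryo genes, had counts of at most 6.78. Reads from such copies cannot be assigned with confidence. Phf21a, a histone reader of a demethylase complex, went from 1313 and 1478 in CTCF U to 581.1, 486.9 and 563 in ID (log2 fold change -1.36, SE 0.1, limma adjusted p = 1.43e-07) and fell by 1.97 in CTCFL ID. Lpar1, a receptor of lysophosphatidic acid, went from 704 and 722.5 to 290.6, 269.8 and 343.5 (-1.25, SE 0.13, limma adjusted p = 2.3e-06) and fell by 1.15 in CTCFL ID, while in I it was not called in either line.

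Of all 53843 annotated genes, 0.758% had an away peak of CTCF ID at the promoter and 0.472% one of CTCFL ID, so few were to be met in any list. Of 40 pluripotency regulators, 16 genes of cohesin and its regulators, 33 Mediator subunits, 67 replication-dependent histone genes and 20 immediate early and stress genes, 0 had an away peak of either file within 3 kb of a start. Of 80 ribosomal protein genes, Rpl14 alone had one, in CTCF ID, with normalised counts of 18648 and 11227 in U and 18487, 21426 and 21326 in ID. The cells expressed the stem cell markers, with Pou5f1 between 13000 and 19300 and Nanog between 18100 and 41300 normalised counts. Of fibroblast genes, Col1a1 (228 to 1000) and Thy1 (464 to 1250) were also counted, while Col1a2 (2 to 40.8) and Col3a1 (0.99 to 19.5) were low. Of endoderm genes, Gata4 stood at 1030 to 1840, Gata6 at 645 to 1110, Sox17 at 203 to 483 and Foxa2 at 51.9 to 166. Of neural genes, Tubb3 stood at 532 to 2450, Sox1 at 52.4 to 562, Pax6 at 0 to 17.4 and Neurog2 at 0 to 22.5. The part of these genes in the results was not tested.

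Of the cohesin genes themselves, 5 of 16 were called in CTCF ID and 4 in CTCFL ID, all of them lower, where 9.26% and 10.7% of all genes were called lower. Rad21 was not called, at 10089 to 10125 in CTCF U (n = 2) and 6632 to 6895 in ID (n = 3), a log2 fold change of -0.59 (SE 0.08, limma adjusted p = 2.72e-05), and -0.62 in the CTCFL line. Called lower in both lines were the subunits Stag1 (-1.38 and -1.25) and Stag2 (-1.04 and -1.15), the loader Nipbl (-1.17 and -1.33) and the deacetylase Hdac8 (-1.26 and -1.35). Pds5b was called lower in CTCF ID (-1.09) and not in CTCFL ID (-0.48). Loader subunit Mau2 stood at 0.01 and 0.05. In CTCFL I against U, Hdac8 was called lower (-1.58, limma adjusted p = 4.73e-05). Of the pluripotency list, 15 and 18 of 40 were called lower in CTCF ID and CTCFL ID, with a median log2 fold change of -0.66 and -0.93, and 13 and 7 in CTCF I and CTCFL I, where 5.92% and 5.88% of all genes were.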

How the data were processed

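RAD21 and FLAG ChIP-seq, RNA-seq and Hi-C of mouse embryonic stem cells were used. Per the labels and the study's methods, the authors aligned ChIP-seq reads to GRCm38/mm10 with Bowtie2, kept unique reads, removed duplicates and called peaks per replicate with MACS, as broad peaks for RAD21. The deposited RAD21 and FLAG peak lists give a fold enrichment (a ratio) and a −log10 q, which is a mean over a broad peak. The control library and the read depth are not given in the sources used here. The labels' processing notes name Trim Galore 0.4.4, SAMtools 1.3, HTSeq and deepTools. The deposited RNA-seq signal is a gene count that the authors divided by a size factor (normalised count). In 20 of the 22 libraries of the CTCF and CTCFL lines the values gave back whole reads (100% of values within 0.1 of a whole number), 6847072 to 43154741 reads a library.

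Overlap meant 1 bp. Start sites (130588 positions of 53843 genes) were taken from GENCODE M21, and sequences from the RefSeq copy of GRCm38. A promoter was a middle within 3 kb of a start site. Shares of sequenced bases leave out gaps. Motifs were searched in 500 bp. RNA was tested with limma 3.58.1 (lmFit, eBayes with trend) on log2(normalised count + 1) over genes with a mean of at least 10 in the line, with Benjamini-Hochberg adjustment over all genes tested. Fold changes are on that log2 scale, which understates changes of low genes. The fits were tested on simulated data. edgeR 4.0.16 and DESeq2 1.42.0 on the recovered reads, other windows and left-out libraries were alternatives. Python 3.11.15, R 4.3.3, pandas 2.3.3, scipy 1.17.1 and numba 0.67.0 were used.

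The genes named were the 12 protein-coding genes at away peaks of both files with peaks in most of the other libraries, the 6 called genes with the largest change in each comparison whose groups do not overlap, and list members with an away peak at the promoter. The regions named were those of these genes and the 5 strongest of each file. The remaining recurrent regions and the cohesin genes were named after their values were seen. The away peaks and gene lists were chosen with earlier results of these data known, and the alternating stretch and its alternatives after the sequences had been seen. Replicates are samples of 1 clone a line, so p-values measure the spread between these samples, which may be technical. Intervals cover counting error only.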

Additional observations from a re-analysis of the deposited data

Results flagged for a closer look

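In 5 cases the change of a named gene differed between the lines, by a test of the difference itself (a limma fit over both lines, adjusted over all genes, CTCFL line minus CTCF line on the log2 scale). For Ctcfl in ID against U the difference was 5.72 (SE 0.23, limma adjusted p = 6.84e-14), with -0.99 in the CTCF line and 4.73 in the CTCFL line, where transgene reads count towards the gene. For Ctcflos, its antisense RNA, it was 5.22 (SE 1.37, limma adjusted p = 0.00957). For Wif1 in ID it was 3.99 (SE 0.59, limma adjusted p = 4.28e-05), with -0.62 and 3.36, and an away peak lay at its promoter in both files. For Abca4 in ID it was 3.16 (SE 0.76, limma adjusted p = 0.00483), with -2.73 in the CTCF line and 0.43 in the CTCFL line. For Mlph in I it was 2.53 (SE 0.46, limma adjusted p = 0.00197), with -0.35 and 2.17. Mlph counts were 68.06 and 70.7 in CTCF U and 52.27, 68.16 and 44.43 in CTCF I. In the CTCFL line they were 25.58, 8.89 and 12.77 in U and 67.14, 76.85 and 61.54 in I. For Mlph the lines were thus further apart in U than in I. Each line is 1 clone, so the transgene and the clone cannot be told apart.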

How the results depend on the processing

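Recurrence of away peaks stayed below that of peaks at CTCF or CTCFL in all alternatives run, from -32.01 to -10.15 percentage points in CTCF ID and -32.02 to -10.41 in CTCFL ID when a replicate was left out, and at -1.22 and -1.21 against the top 150 peaks of every library. The promoter difference of 0.1 changed sign with starts within 1 kb (-0.41), protein-coding starts (-1.66) and averaged libraries (-0.8), and ran from -1.4 to 1.23 with libraries left out, -0.09 without LCL D and CLC D replicate 2. The ID minus D difference of 4.84 passed 0.05 at a −log10 q of 5 (12.45) and with the top 150 peaks (15.67), by a permutation that ignores the replicate. It ran from 0.15 in replicate 2 to 14.38 in replicate 1, the latter in the LCL and CLC lines alone. With the replicate block it was 4.89 (exact sign-flip permutation p = 0.438). The cause was not tested.

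The number of away peaks in CTCF ID and CTCFL ID was 4203 and 2283 with FLAG peaks of both replicates only, 756 and 391 with the other FLAG files added, 12 and 19 at a −log10 q of 5, 762 and 461 with a stretch under 20 bases, and 22 to 3286 and 52 to 1717 with a replicate left out. Promoter shares in CTCF ID were 19.3% with the other FLAG files, 50% at a −log10 q of 5, 5.59% within 1 kb, 8.81% for protein-coding starts, 20.1% with a short stretch and 13.6% to 15.7% with a replicate left out. In CTCFL ID they were 16.4% with FLAG peaks of both replicates, 42.1% at a −log10 q of 5, 6.64% within 1 kb, 10.7% for protein-coding starts, 21.7% with a short stretch and 17% to 38.5% with a replicate left out.

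Called genes at away peaks (37, 25, 28 and 13 in CTCF ID, CTCF I, CTCFL ID and CTCFL I) were 13, 11, 7 and 6 within 1 kb, and 15, 9, 13 and 4 with a stretch under 20 bases, where fewer genes were tested. With a library left out they ran from 32 to 37, 18 to 28, 24 to 27 and 8 to 12, the 8 without CTCFL I replicate 1 or CTCFL U replicate 2. RNA replicate numbers did not pair the samples, and with the replicate block the counts were 35, 23, 26 and 11. Named genes kept their call in 284 fits and lost it in 21, among them 8 each for Card14 and Tbata, 2 each for Abca4 and Slc22a3 in CTCF I and 1 for A530040E14Rik in CTCFL ID. ChIP-seq read depth is unknown, so weak recurrence and a shallow library cannot be told apart.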
